A study of Mus musculus with 47 samples.

Results

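The nuclear genes of respiratory complex I were followed in the mouse retina over the day at 2 ages. They were taken as all protein-coding genes whose symbol begins with Nduf and that reached 0.5 RPKM (reads scaled to exon length and to the library's total) in at least 12 of 47 libraries. This kept 46 of the 57180 genes in the table, and no protein-coding Nduf gene of the table fell below the threshold. Ndufa4l2 passed in 27 libraries and the other 45 genes in all 47. The remaining 5 Nduf symbols are 4 processed pseudogenes and the noncoding Ndufb1-ps, and they were not counted. The samples are retinas of C57BL/6 mice, an inbred laboratory strain with no engineered allele named in the labels. Aged mice were 20 months old (23 libraries) and young mice were 6 weeks old (24 libraries), all housed under equal spans of light and dark. Sampling covered 6 zeitgeber times (ZT, hours after lights on) spaced by 4 h, with the right eyes of 4 mice per age and time. The light phase holds ZT2, ZT6 and ZT10, and the dark phase the later ones up to ZT22. Each age and time has 4 libraries, except aged ZT18 with 3. The comparisons ask whether these transcripts differ with age, whether they cycle over 24 h at either age, and whether the cycles differ.

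Complex I is the first enzyme of the respiratory chain. It takes electrons from NADH, passes them along flavin and iron-sulfur clusters to ubiquinone, and pumps protons across the inner mitochondrial membrane. Its NADH-binding N module and ubiquinone-binding Q module form the matrix arm, and a proximal and a distal part form the membrane arm. The 7 core subunits of the membrane arm are encoded in mitochondrial DNA, whereas the core subunits of the matrix arm, the accessory subunits and the assembly factors are nuclear. Photoreceptors have a high energy demand, and their inner segments are packed with mitochondria.

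By role the 46 genes comprise 3 core and 8 accessory subunits placed with the N module, 4 core and 2 accessory subunits of the Q module, 9 accessory subunits of the proximal and 10 of the distal membrane arm, 8 assembly factors and 2 genes named Nduf whose products lie outside the enzyme. Transcription of such genes is known to involve NRF1, YY1, ERR and ETS-family (GABPA) factors, and CRE and E-box elements are bound by cAMP-responsive and by clock-related factors. RefSeq promoters (GRCm38.p6, 250 bases before to 50 after the start) were matched for 40 of the 46 genes and searched on both strands. The NRF1 letters GCGCANGCG occurred in 10 of 40, or 25%, against 15.1% of 10299 promoters of tested genes. The YY1 letters AANATGGCG occurred in 8 of 40, or 20.0%, against 5.83%, and CRE letters TGACGTCA in 3, or 7.50%, against 3.55%. ERR letters TNAAGGTCA were found in Ndufb4 alone of the 40 (2.50% against 0.903%), ETS letters CCGGAAGT in Ndufs3 alone (2.50% against 8.96%), and E-box letters CACGTG in Ndufa7 and Ndufv1 (5.0% against 11.5%). A match is a description of these letters and not evidence of a bound site.

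Stretches with matches in capitals are shown for genes called for a daily rhythm and for Ndufa10, which had the smallest p for age. The first 4 hold the 120 bases before the start. Ndufaf4 has overlapping NRF1 matches (chr4:24897963-24898082, plus strand), Ndufb4 has 2 NRF1 matches around an ERR match (chr16:37654369-37654488, minus strand), and Ndufb2 (chr6:39592445-39592564, plus strand) and Ndufa10 (chr1:92473759-92473878, minus strand) each have 1 CRE match. The last 3 are 29-base windows just after the start that hold the YY1 letters, which there contain an ATG: Ndufs4 (chr13:114388045-114388073, minus strand), Ndufaf8 (chr11:120098934-120098962, plus strand) and Ndufs7 (chr10:80249463-80249491, plus strand).
Ndufaf4: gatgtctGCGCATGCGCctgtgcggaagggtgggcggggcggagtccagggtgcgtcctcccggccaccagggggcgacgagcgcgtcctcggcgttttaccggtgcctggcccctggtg
Ndufb4: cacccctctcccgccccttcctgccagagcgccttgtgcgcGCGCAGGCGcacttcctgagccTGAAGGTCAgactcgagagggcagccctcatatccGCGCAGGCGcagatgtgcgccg
Ndufb2: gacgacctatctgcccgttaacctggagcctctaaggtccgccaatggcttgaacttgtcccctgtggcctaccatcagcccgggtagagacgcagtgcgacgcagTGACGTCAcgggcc
Ndufa10: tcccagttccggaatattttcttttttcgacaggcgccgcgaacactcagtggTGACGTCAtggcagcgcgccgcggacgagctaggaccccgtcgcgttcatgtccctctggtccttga
Ndufs4: cgtttgcctacaggAAGATGGCGgcggtc
Ndufaf8: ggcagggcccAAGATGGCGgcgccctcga
Ndufs7: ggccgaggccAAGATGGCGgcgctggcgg

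Depth was similar at both ages, from 32.5 to 46.5 M reads in aged libraries and from 32.0 to 55.5 M in young libraries. Rod markers stood at a mean log2 level of 9.44 to 10.4 in all libraries, so the labelled tissue's defining markers were present. In the mean log2(RPKM + 0.5) of the 46 genes 2 libraries stood apart: aged ZT6 replicate 3 lay at 4.16 and young ZT10 replicate 4 at 5.44, whereas the other 45 lay between 4.36 and 4.93. In aged ZT6 replicate 3 the mitochondrially encoded complex I transcripts averaged 10.3 on that scale, against 8.63 to 9.74 in the other 45. In young ZT10 replicate 4 ribosomal protein genes averaged 7.49 (other 45: 5.79 to 6.61), Müller glia markers 2.18 (4.66 to 5.46) and bipolar markers 1.85 (3.04 to 4.39). Results are therefore given with and without these 2 libraries. In whole retina, fewer cells of a type and less RNA per cell cannot be told apart.

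**Figure D1:**
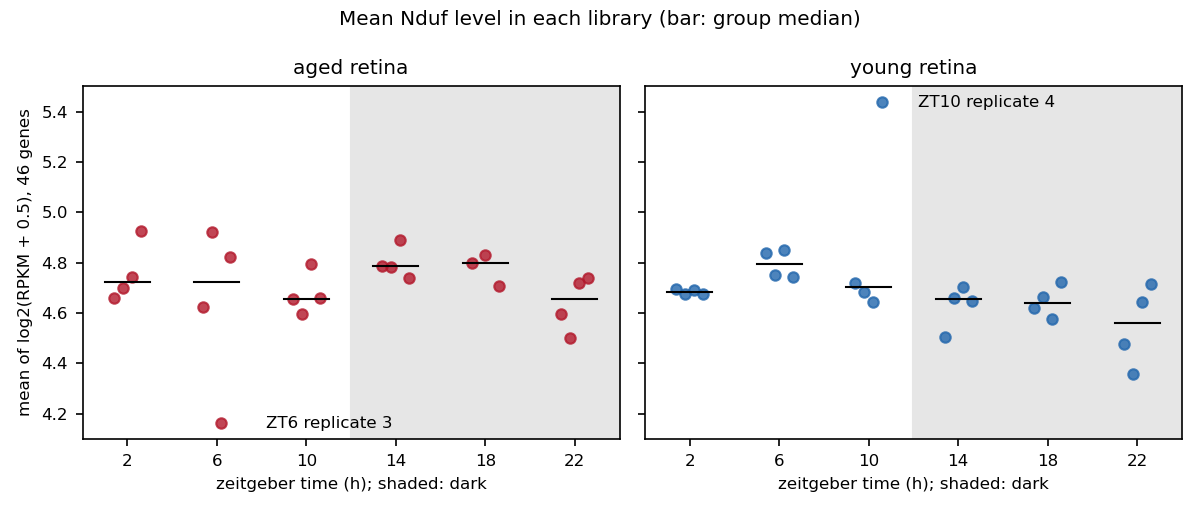
Mean log2(RPKM + 0.5) of the 46 Nduf transcripts (vertical axis) in each library (points) by zeitgeber time (horizontal axis, h) for aged (left) and young (right) retina, with bars at group medians. Aged ZT6 replicate 3 lies lowest at 4.16 and young ZT10 replicate 4 highest at 5.44.

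Levels per exon length spanned more than 2 orders of magnitude and kept nearly the same order at both ages. Ndufa4, whose product is now counted as a subunit of complex IV, was highest at 200.2 ± 30.8 RPKM in aged and 187.0 ± 56.2 RPKM in young retina (SD, n = 23 and n = 24). Ndufb11, an accessory subunit of the distal membrane arm, followed at 175.0 ± 26.9 RPKM in aged and 172.1 ± 39.0 RPKM in young. Ndufc2, at the proximal arm, was at 118.8 ± 20.3 RPKM in aged and 122.9 ± 18.8 RPKM in young.

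The lowest was Ndufa4l2, a paralogue of Ndufa4 known for its induction by hypoxia, at 0.568 ± 0.380 RPKM in aged and 0.633 ± 0.219 RPKM in young, from 4 to 66 reads per library. Ndufb8, a distal arm subunit, had 1.69 ± 0.281 RPKM in aged and 1.60 ± 0.508 RPKM in young. Ndufaf2, a late assembly factor related in sequence to the subunit Ndufa12, had 3.61 ± 0.578 RPKM in aged and 3.47 ± 0.677 RPKM in young. All exons annotated for a gene enter its length, which runs from 419 bases for Ndufa1 to 8086 for Ndufs1, so genes with long rarely used exons, as Ndufab1 with 6883 bases, read low on this scale.

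Of the nuclear core subunits, Ndufv1, which binds NADH and flavin, stood at 69.2 ± 7.85 RPKM in aged and 68.0 ± 7.84 RPKM in young. Ndufs8, Ndufs7 and Ndufv2, which carry iron-sulfur clusters, lay within 1 SD of each other, from 48.1 to 51.2 RPKM in aged and from 46.9 to 51.1 RPKM in young. Ndufs3 had 31.9 ± 3.75 RPKM in aged and 31.1 ± 5.79 RPKM in young. Ndufs1, which carries several iron-sulfur clusters, was lowest at 11.7 ± 0.816 RPKM in aged and 11.5 ± 1.29 RPKM in young. The 8 assembly factors all ranked below most subunits, the highest being Ndufaf5 at 20.1 ± 2.52 RPKM in aged and 20.3 ± 4.10 RPKM in young.

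**Figure D2:**
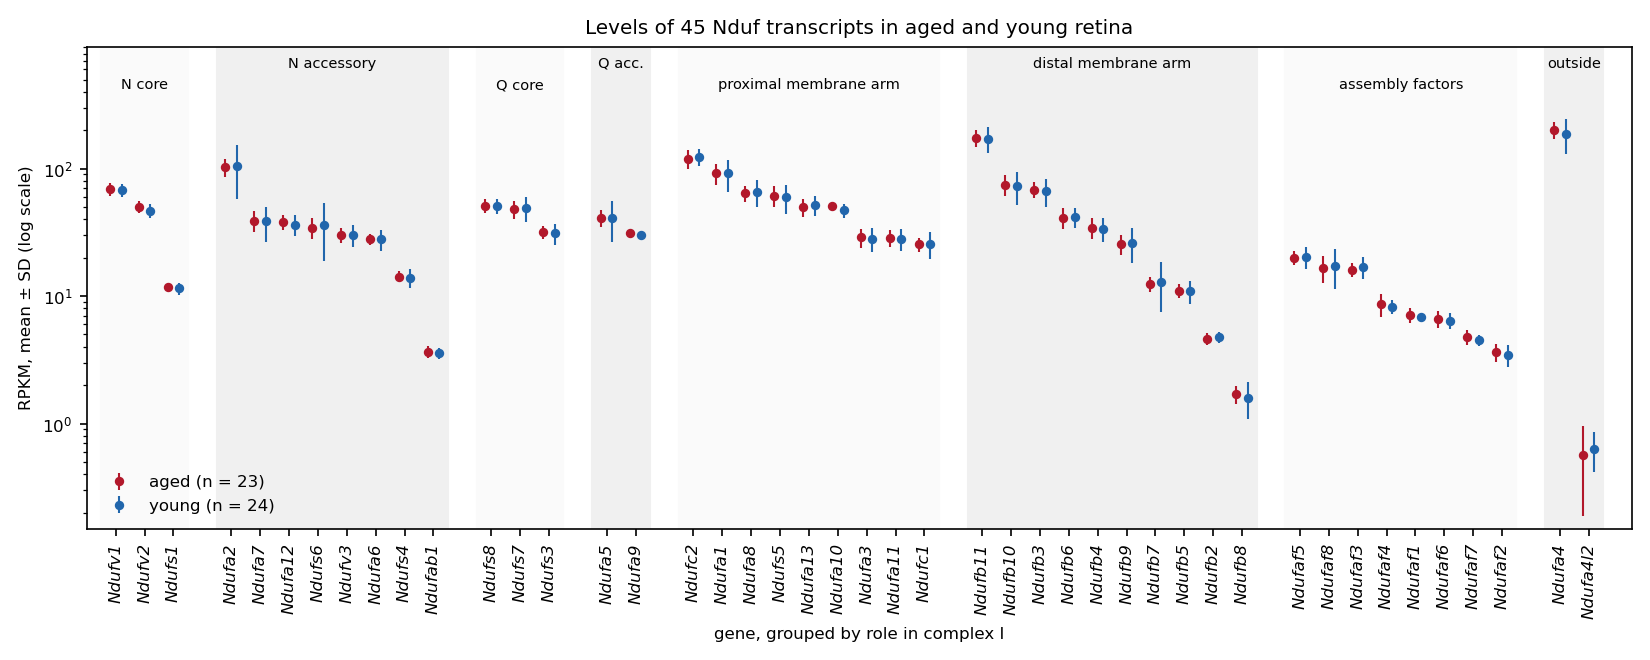
Mean ± SD RPKM (log scale, vertical axis) of 45 Nduf transcripts, grouped by role (horizontal axis), in aged (red, n = 23) and young (blue, n = 24) retina. Levels run from Ndufa4l2, under 1 RPKM, to Ndufa4 near 200.2 RPKM in aged retina, and the ages overlap for each gene shown.

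Some of these values can hold reads of other genes. At 95% identity or more, 20 members share part of their transcript with another gene. Processed pseudogenes matched 84.1% of the Ndufs3 transcript, 62.9% of Ndufb11, 46.9% of Ndufs5, 46.2% of Ndufs6, 40.2% of Ndufb4, 37.0% of Ndufb3 and 36.2% of Ndufa12. The copy of Ndufa12, Gm15920, was itself listed at 28.7 RPKM and that of Ndufs5, BC002163, at 10.5 RPKM. Exons of B230220B15Rik on the other strand cover 65.6% of Ndufaf2, and Smim27 covers 39.0% of Ndufb6, and the strand setting of the counting is not given in the sources used here. Values of these genes are uncertain to that extent.

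The members largely varied together. Over deviations from the group means, the median Pearson correlation of 1035 gene pairs was 0.64 in 47 libraries and 0.51 in 45. In the 45 libraries, Ndufs8 and Ndufa4 followed the mean of the other members most closely, at 0.91 each. Ndufaf1, Ndufa4l2, Ndufs1 and Ndufaf7 followed it least, at -0.20, -0.10, 0.07 and 0.09. The libraries share depth and tissue makeup with every gene, so these correlations are a description.

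With all 47 libraries no member passed an adjusted p of 0.05 for age, and 2 (4.35%) had an unadjusted p under 0.05, against 15.7% of all genes. In the same limma fit, 2.41% of 15321 tested genes were called higher and 1.83% lower in aged retina. With a fold over 1.5 as well, 0.490% of all genes and 0 members were called. The limma voom test on recovered reads also called 0 members. The median difference, aged minus young, was 0.03 log2 units over the members and -0.02 over all genes.

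Among the smallest p-values were those of the subunits Ndufa10 and Ndufv2, of 3 assembly factors and of both genes outside the enzyme. Ndufa10, an accessory subunit on the matrix side of the membrane arm, ran from 43.1 through a median of 50.8 to 57.6 RPKM in aged libraries and from 40.0 through 46.98 to 68.4 RPKM in young libraries. The groups overlapped, and its highest young value was that of young ZT10 replicate 4. Its difference was 0.12 ± 0.04 (SE) log2 units with an adjusted p of 0.0850. Ndufv2 ran from 39.4 through 50.8 to 65.8 RPKM in aged and from 35.5 through 46.1 to 57.2 RPKM in young, a difference of 0.10 ± 0.04 with an adjusted p of 0.192.

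Ndufa4 ran from 148 through 201.1 to 277 RPKM in aged and from 127 through 177 to 426 RPKM in young, a difference of 0.12 ± 0.08. The groups overlapped, and the highest young value was again young ZT10 replicate 4.

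The assembly factors among them were Ndufaf7, a protein arginine methyltransferase of the mitochondrion, with 0.07 ± 0.05, Ndufaf1, which acts in assembly of the membrane arm, with 0.05 ± 0.04, and Ndufaf3, which acts on the Q module, with -0.07 ± 0.05. Ndufa4l2 had -0.14 ± 0.11. Their adjusted p-values lay between 0.550 and 0.639.

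The 2 libraries that stand apart were picked on the mean level of these same genes, 1 as the lowest aged and 1 as the highest young library. Leaving them out therefore moves aged minus young upward by construction, and the values from the 45 libraries are a description that depends on this choice. Without aged ZT6 replicate 3 and young ZT10 replicate 4, 16 members were called higher in aged retina and 0 lower, or 34.8% called higher. In that fit 7.24% of all genes were called higher and 9.29% lower. The median difference became 0.09 log2 units over the members and -0.03 over all genes, and 41 of 46 members against 40.2% of all genes had a positive difference. The libraries were not picked on all genes, so the gap between members and all genes is in part built in. At an unadjusted p under 0.05 there were 24 members, or 52.2%, against 31.7% of all genes. With all 47 libraries kept and weighted by array weights estimated over all genes, 6 members were higher. The share of all genes called with these weights is not given here, so that count has no background beside it. The changes of the 16 members in the 45 libraries were small, from 1.06-fold for Ndufv1 to 1.14-fold for Ndufa4. Leaving out only young ZT10 replicate 4 gave 3 members, and leaving out only aged ZT6 replicate 3 or only aged ZT10 replicate 2 gave 1 each.

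By role, the 16 were 2 of 3 N module core subunits, 4 of 8 N module accessory subunits, 1 of 4 Q module core subunits, 0 of 2 Q module accessory subunits, 4 of 9 proximal and 4 of 10 distal membrane arm subunits, 0 of 8 assembly factors and Ndufa4. Whether the roles differ was not tested. With quantile normalization in the 45 libraries 11 members were higher, and the share of all genes there is not given here.

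Ndufa10 differed by 0.15 ± 0.03 log2 units in the 45 libraries with an adjusted p of 5.93e-05. Its 22 aged libraries ran from 43.1 through 51.0 to 57.6 RPKM, and its 23 young libraries from 40.0 through 46.8 to 52.1 RPKM. Aged retina was higher at 6 of 6 times, although single libraries overlapped. In the distal arm Ndufb10 differed by 0.18 ± 0.04, from 62.2 through 76.7 to 91.0 RPKM in aged against 53.2 through 69.4 to 82.3 RPKM in young, with an adjusted p of 0.00115 and at 6 of 6 times. Ndufs3 of the Q module core differed by 0.12 ± 0.03, with 32.5 ± 2.09 RPKM in aged and 30.0 ± 1.97 RPKM in young (SD, n = 22 and n = 23), an adjusted p of 0.00168 and the copies named above.

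Ndufs5, which faces the intermembrane space, differed by 0.16 ± 0.04, with 63.2 ± 7.88 RPKM in aged and 56.5 ± 5.23 RPKM in young. For Ndufa4 the difference was 0.19 ± 0.06 (adjusted p = 0.0175), positive at 4 of 6 times. The N module core subunits Ndufv1 and Ndufv2 differed by 0.08 ± 0.03 and 0.10 ± 0.04, with adjusted p-values of 0.0277 and 0.0482. The other 9 were Ndufa11, Ndufb8, Ndufb3, Ndufa7, Ndufv3, Ndufb7, Ndufs6, Ndufa3 and Ndufa12, with differences from 0.09 for Ndufv3 to 0.16 for Ndufb8. The 16 genes include 5 with a processed pseudogene named above (Ndufs3, Ndufs5, Ndufs6, Ndufb3 and Ndufa12), and Ndufa11 and Ndufb8 share 7.84% and 6.26% of their transcripts with other genes.

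Leaving out 1 more library gave 10 to 20 members higher and 0 lower. The count was 10 without aged ZT14 replicate 3, aged ZT22 replicate 3, young ZT14 replicate 1 or young ZT22 replicate 2. Ndufa10, Ndufb10, Ndufs3, Ndufs5, Ndufa4, Ndufa11, Ndufb8, Ndufb3 and Ndufa7 were called in all 45 such fits, and Ndufv2 in 19. All these fits leave out the same 2 libraries, so they share that choice and do not test it. The share of all genes called in them is not given here.

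**Figure D3:**
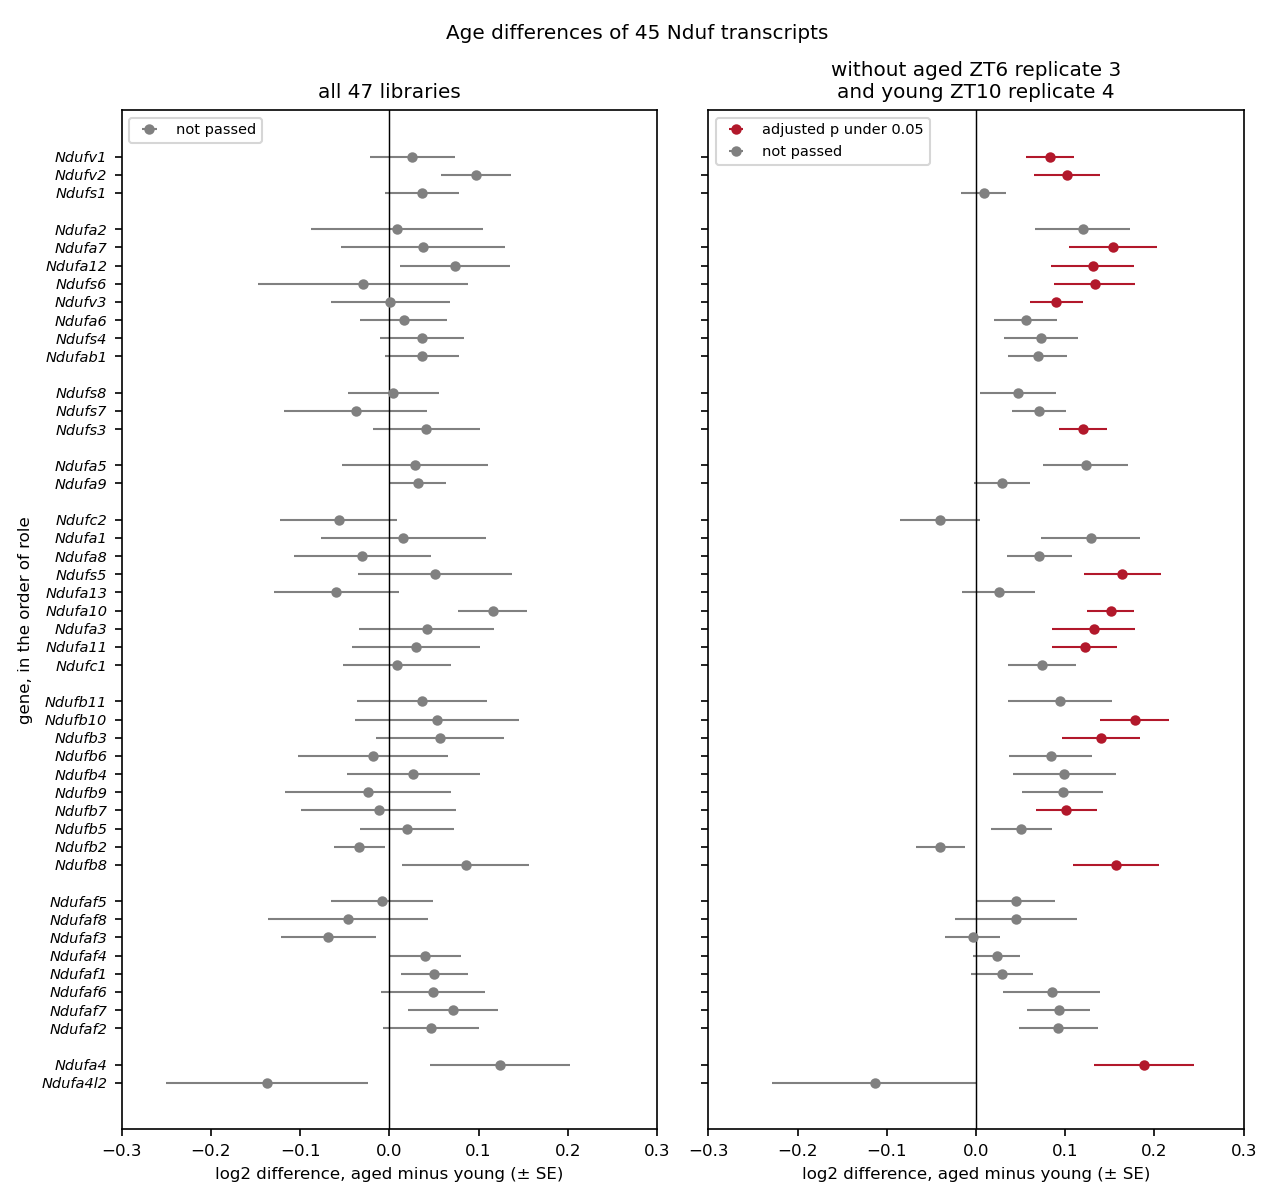
Log2 difference, aged minus young, with SE (horizontal axis) for 45 Nduf transcripts (vertical axis, by role) with all 47 libraries (left) and with 45 (right). Red points have an adjusted p under 0.05: 0 on the left and 16 on the right, all 16 positive.

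Other gene lists moved alongside. In the 45 libraries 21 of 82 cytosolic ribosomal protein genes were higher in aged retina and 0 lower, with a median of 0.11 log2 units, 7 of 15 bipolar markers were lower and 1 higher, and 0 of 17 rod markers passed. Passed or not, the difference was positive for 16 of 17 rod markers and 76 of 82 cytosolic ribosomal protein genes. It was positive for 2 of 15 bipolar and 3 of 12 Müller glia markers. Of the members 41 of 46 were positive, so a positive shift is not particular to them. Blood markers were higher in 4 of 5 and RPE markers (retinal pigment epithelium, a layer next to the retina) in 3 of 9. Lens markers were lower in 3 of 15, which were Crygb, Crygc and Crygd with differences of -2.64, -2.54 and -2.51 log2 units. Of 12 Müller glia markers Slc1a3 and Abca8a were lower and Car2 higher. The part of tissue makeup in the age differences was not tested. Of complex II, the other entry of electrons to ubiquinone, Sdha was the 1 gene of 8 that passed, with 0.10 ± 0.03 log2 units in 47 libraries (adjusted p = 0.0469) and 0.13 ± 0.02 in 45.

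Of the 7 mitochondrially encoded subunits 0 passed in either fit, while 1 in 47 and 3 in 45 libraries had an unadjusted p under 0.05. Their median difference was 0.13 log2 units in 47 and 0.10 in 45 libraries. The most abundant, mt-Nd1, had 4273 ± 620 RPKM in aged and 4005 ± 688 RPKM in young. Reads of these transcripts depend on poly-A selection. Of 12 other assembly factors of complex I, Lyrm2 passed in the 45 libraries, at 0.16 ± 0.05 log2 units. Of 13 regulators of nuclear respiratory genes, Polrmt, the mitochondrial RNA polymerase, and Gabpa were lower in the 45 libraries, at -0.09 ± 0.03 and -0.10 ± 0.03 (adjusted p = 0.0293 and 0.0471).

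At single times 0 members were called by limma, also with voom. The share of all genes called was 0.144% for ZT2, 3.12% for ZT6, 0.496% for ZT10, 0.248% for ZT14, 0.255% for ZT18 and 0.170% for ZT22. At an unadjusted p under 0.05 there were 8 members (17.4%) for ZT6 against 19.8% of all genes, 7 (15.2%) for ZT10 against 12.6%, 4 (8.70%) for ZT14 against 5.46%, and 0 for ZT2, ZT18 and ZT22. In the 45 libraries these counts were 7 for ZT2, 4 for ZT6, 2 for ZT10, 17 for ZT14, 9 for ZT18 and 6 for ZT22. The shares of all genes there were 12.6%, 11.8%, 7.24%, 12.9%, 8.54% and 12.5% in the same order of times. The median difference over the members was -0.17 log2 units for ZT6 and -0.23 for ZT10, and between 0.07 and 0.17 for the other times. At ZT6 and ZT10 it became -0.02 and 0.00 without the 2 libraries, which belong to those times. At ZT14 the difference was positive for 44 of 46 members, against 50.7% of all genes. It was also positive for 81 of 82 cytosolic ribosomal protein genes, 8 of 8 complex II genes and 6 of 7 mitochondrially encoded subunits. Among rod markers it was positive for 11 of 17 and among bipolar markers for 8 of 15. The pattern is thus not particular to the members, which also vary together and are not separate observations.

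The smallest p at each time belonged to Ndufaf6 at ZT2 (-0.23 ± 0.13), Ndufaf7 at ZT6 (-0.26 ± 0.11) and at ZT10 (0.29 ± 0.11), Ndufv2 at ZT14 (0.24 ± 0.09), Ndufab1, the mitochondrial acyl carrier protein, at ZT18 (0.20 ± 0.10) and Ndufv2 at ZT22 (0.19 ± 0.09). Their adjusted p-values were 0.184 for Ndufaf7 at ZT6, 0.327 for Ndufaf7 at ZT10 and above 0.6 for the others. The interaction of age and time called 0 members and 0% of all genes, with 3 members (6.52%) at an unadjusted p under 0.05 against 4.80% of all genes. The smallest p was that of Ndufa6 (0.0105, adjusted p = 0.838), followed by Ndufs4 (0.0191).

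In young retina 13 of the 46 members, or 28.3%, passed the limma F test of a 24 h cosine, against 19.7% of all genes. They comprised 6 of 8 assembly factors and 7 of 36 structural subunits, and all 13 peaked in the light, from ZT4.92 for Ndufaf1 to ZT9.71 for Ndufs7. Passed or not, fitted peaks in young lay in the light for 42 of 46 members, against 65.6% of all genes. The same held for 80 of 82 cytosolic ribosomal protein genes, so a peak in the light is not particular to the members. The 6 assembly factors were Ndufaf4, Ndufaf8, Ndufaf5, Ndufaf2, Ndufaf3 and Ndufaf1. The 7 subunits were Ndufs4, Ndufa6, Ndufb4, Ndufv2, Ndufab1, Ndufb5 and Ndufs7. Without the 2 libraries 20 members passed, or 43.5%, against 34.0% of all genes, including the same 6 assembly factors.

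In aged retina 1 of 46 members passed, or 2.17%, against 14.4% of all genes. Without the 2 libraries 7 members passed, or 15.2%, against 27.3%. The 7 were Ndufb2, Ndufaf3, Ndufa8, Ndufc2, Ndufb10, Ndufaf4 and Ndufs1, and 5 of them also passed in young. The aged count changed with single libraries. With all others kept it was 7 without aged ZT6 replicate 3, 2 without aged ZT6 replicate 2, and 0 without any 1 of 16 other aged libraries. The share of all genes in these fits is not given here, so the counts have no background beside them.

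These counts changed with the scaling and with tissue covariates, and the part of tissue makeup in them was not tested. With median-ratio scaling 2 members passed in aged and 4 in young (12.4% and 16.3% of all genes). With mean RPE and lens levels as covariates 0 passed in aged and 4 in young (2.17% and 11.5%). Ndufaf4 and Ndufs4 were among the 4 in young under both. With 6 times as a factor in place of the cosine 1 passed in aged and 8 in young. The share of all genes passing that test is not given here, so these 2 counts have no background beside them. RPE markers averaged 2.67 in dark and 1.51 in light aged libraries, and 2.199 in dark and 1.47 in light young libraries, on the log2 scale without the 2 libraries. Blood markers averaged 4.68 in dark and 2.47 in light aged libraries, and 2.85 in dark and 2.38 in light young libraries, and 5 of 5 in aged and 0 in young passed the cosine test.

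Ndufaf4, which with Ndufaf3 builds the Q module and whose promoter carries the NRF1 letters shown above, had the smallest p in young retina. In aged libraries it stood at 8.66, 8.39, 8.09 and 8.34 RPKM at ZT2, 9.46, 10.2, 15.7 and 9.45 at ZT6, 7.82, 7.79, 9.01 and 8.05 at ZT10, 8.80, 8.37, 8.53 and 8.19 at ZT14, 7.57, 8.27 and 7.61 at ZT18 and 6.62, 7.46, 7.30 and 8.31 at ZT22. In young libraries it stood at 9.02, 8.28, 7.61 and 9.58 RPKM at ZT2, 9.33, 9.503, 9.36 and 9.76 at ZT6, 8.48, 9.33, 7.91 and 10.1 at ZT10, 7.51, 8.02, 8.51 and 8.14 at ZT14, 6.82, 7.28, 7.10 and 6.53 at ZT18 and 7.11, 7.55, 7.65 and 7.65 at ZT22. The young ZT6 values lay above every young value of the dark times, and the aged ZT6 values above every other aged value. The 15.7 RPKM is from aged ZT6 replicate 3.

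The fitted Ndufaf4 peaks were close, at ZT6.89 ± 1.14 h (SE) in aged and ZT6.81 ± 0.55 h in young. Amplitudes were 0.18 ± 0.06 log2 units in aged and 0.20 ± 0.03 in young, a peak-to-trough fold of 1.29 in aged and 1.32 in young. The adjusted p was 0.0742 in aged and 0.000105 in young. Without the 2 libraries it was 0.0329 in aged and 3.29e-05 in young.

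Ndufs4, an N module subunit that joins late and whose loss in mice gives a model of Leigh syndrome, had the smallest p for a difference in rhythm between the ages. In aged libraries it stood at 13.3, 13.4, 12.9 and 15.3 RPKM at ZT2, 13.8, 16.7, 12.4 and 16.1 at ZT6, 13.4, 15.1, 14.97 and 13.8 at ZT10, 14.6, 16.1, 16.3 and 13.9 at ZT14, 14.3, 16.4 and 12.9 at ZT18 and 12.5, 11.4, 13.7 and 14.1 at ZT22. In young libraries it stood at 12.4, 12.3, 12.7 and 12.1 RPKM at ZT2, 16.03, 15.98, 18.3 and 17.2 at ZT6, 14.4, 17.8, 14.6 and 19.4 at ZT10, 12.5, 14.6, 14.1 and 13.6 at ZT14, 12.2, 13.1, 11.6 and 14.3 at ZT18 and 10.99, 9.23, 11.8 and 14.1 at ZT22. Young ZT6 libraries were all above young ZT2 libraries, whereas the aged ranges at these times overlapped. The amplitude was 0.09 ± 0.04 log2 units in aged (adjusted p = 0.283) and 0.27 ± 0.05 in young (adjusted p = 0.000583).

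Ndufa6, an accessory subunit of the LYR-motif family that binds the acyl carrier protein, gave a like picture. Its aged libraries stood at 26.2, 25.5, 28.8 and 29.5 RPKM at ZT2, against 24.2, 32.2, 28.2 and 28.3 at ZT6. Its young libraries stood at 23.8, 24.2, 24.6 and 26.4 RPKM at ZT2, against 31.6, 31.7, 31.5 and 32.1 at ZT6. The 4 young ZT6 libraries lay close together and above all young ZT2 libraries, and the aged ranges overlapped. The amplitude was 0.10 ± 0.04 log2 units in aged (adjusted p = 0.159) and 0.25 ± 0.05 in young (adjusted p = 0.00166).

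Ndufaf8, a partner of Ndufaf5 in modifying Ndufs7, had the largest amplitude of the 13 genes called in young, at 0.18 ± 0.09 log2 units in aged and 0.39 ± 0.08 in young, or 1.28-fold in aged and 1.71-fold in young from trough to peak. Its libraries stood at 13.6, 24.2, 9.97 and 20.1 RPKM at aged ZT6 and 10.9, 11.4, 15.1 and 15.1 at aged ZT22, and at 21.6, 19.8, 22.5 and 18.7 RPKM at young ZT6 and 12.0, 11.3, 12.7 and 17.5 at young ZT22. All young ZT6 values were above the young ZT22 values, while aged ZT6 and ZT22 overlapped. The times compared for Ndufs4, Ndufa6 and Ndufaf8 were not set in advance. With 41.4 RPKM young ZT10 replicate 4 entered the fit, and without the 2 libraries the amplitudes were 0.21 in aged and 0.31 in young.

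The other 4 of the 8 smallest p-values in young were those of Ndufb4, Ndufaf5, Ndufaf2 and Ndufaf3. Their amplitudes ran from 0.07 for Ndufaf3 to 0.15 for Ndufb4 in aged and from 0.21 for Ndufaf2 to 0.28 for Ndufb4 in young. Peaks in young lay between ZT6.47 for Ndufaf3 and ZT8.99 for Ndufb4. Ndufaf5 is an enzyme that hydroxylates an arginine of Ndufs7, so the set holds factors of the Q module (Ndufaf3, Ndufaf4, Ndufaf5, Ndufaf8) and of the N module (Ndufaf2).

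Ndufb2, a small subunit of the distal membrane arm, was the member called in aged retina, and it peaked in the dark at both ages. In aged libraries it stood at 4.02, 3.96, 4.43 and 4.32 RPKM at ZT2, 4.20, 4.13, 4.92 and 4.84 at ZT6, 4.18, 4.45, 4.12 and 3.64 at ZT10, 5.09, 4.95, 4.32 and 5.47 at ZT14, 5.08, 4.99 and 5.402 at ZT18 and 5.20, 5.17, 4.78 and 4.99 at ZT22. In young libraries it stood at 4.50, 4.43, 4.30 and 4.19 RPKM at ZT2, 4.51, 4.86, 4.45 and 4.47 at ZT6, 4.31, 4.48, 4.35 and 4.26 at ZT10, 4.59, 5.62, 5.28 and 5.26 at ZT14, 4.88, 4.98, 4.60 and 5.23 at ZT18 and 4.62, 4.88, 5.67 and 5.62 at ZT22. All ZT18 libraries of both ages were above the ZT2 and ZT10 libraries of their age.

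The Ndufb2 peak was at ZT18.4 ± 1.00 h in aged and ZT18.0 ± 1.15 h in young. The amplitude was 0.14 ± 0.04 log2 units in aged (adjusted p = 0.0394) and 0.11 ± 0.03 in young (adjusted p = 0.0530). Without the 2 libraries both passed, at 0.00487 in aged and 0.0330 in young. With RPE and lens covariates the adjusted p in aged was 0.559. RPE markers peaked close to this time, as Rgr at ZT18.0 in aged and ZT18.8 in young, and their part in the Ndufb2 rhythm was not tested.

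**Figure D4:**
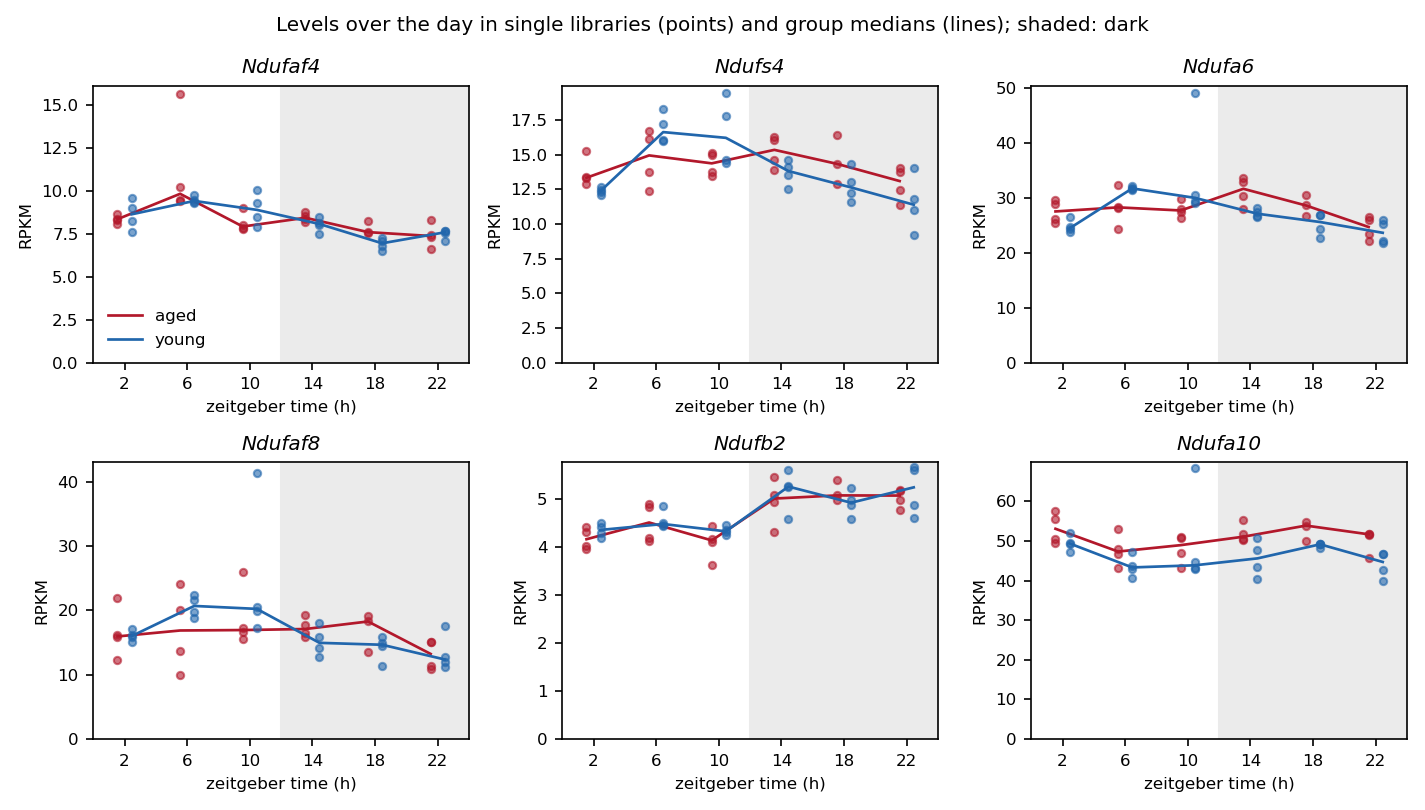
RPKM (vertical axis) of Ndufaf4, Ndufs4, Ndufa6, Ndufaf8, Ndufb2 and Ndufa10 by zeitgeber time (horizontal axis, h) in single aged (red, left of each time) and young (blue) libraries, with lines through group medians and the dark phase shaded. Ndufs4 and Ndufa6 separate ZT2 from ZT6 in young but not in aged libraries, and Ndufb2 is higher in the dark at both ages. Ndufs4 and Ndufa6 were named for small p-values of a rhythm difference between ages, a test that called 0 members. The times compared were not set in advance.

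The rhythms were not shown to differ between ages. The limma test of the difference called 0 members and 0.00653% of all genes, and voom also called 0 members. At an unadjusted p under 0.05 there were 7 members, or 15.2%, against 7.75% of all genes. The smallest p-values were those of Ndufs4 (0.0058), Ndufa1 (0.0103) and Ndufa6 (0.0155), all with an adjusted p of 0.606. Ndufa1, a small membrane-anchored subunit needed early in assembly, had fitted peaks at ZT18.4 ± 1.98 h in aged and ZT8.88 ± 1.24 h in young, with amplitudes of 0.16 ± 0.09 log2 units in aged and 0.23 ± 0.08 in young that did not pass in either age.

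Over all members the median amplitude was 0.10 log2 units in aged and 0.15 in young, against 0.15 in aged and 0.13 in young over all genes. Without the 2 libraries it was 0.07 in aged and 0.10 in young, against 0.14 in aged and 0.12 in young over all genes. In that fit 35 of 46 members (76.1%) had the smaller amplitude in aged retina, against 40.2% of all genes. So did 6 of 8 complex II genes, 5 of 7 mitochondrially encoded subunits and 9 of 13 regulators of nuclear respiratory genes. For cytosolic ribosomal protein genes it was 46 of 82, and for rod markers 3 of 17. With all 47 libraries it was 32 of 46 members (69.6%) against 41.4% of all genes. In those it was 72 of 82 cytosolic ribosomal protein genes (87.8%), 5 of 8 complex II genes and 2 of 17 rod markers. The order of members and ribosomal protein genes thus depends on the 2 libraries, and the smaller amplitude is not particular to the members. The fitted peak times rest on the 2 libraries more strongly. With all libraries 8 members in aged and 36 in young peaked between ZT6 and ZT10, against 33.9% of all genes at each age. Without the 2 libraries it was 9 members in aged and 23 in young, against 39.3% in aged and 46.4% in young over all genes.

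**Figure D5:**
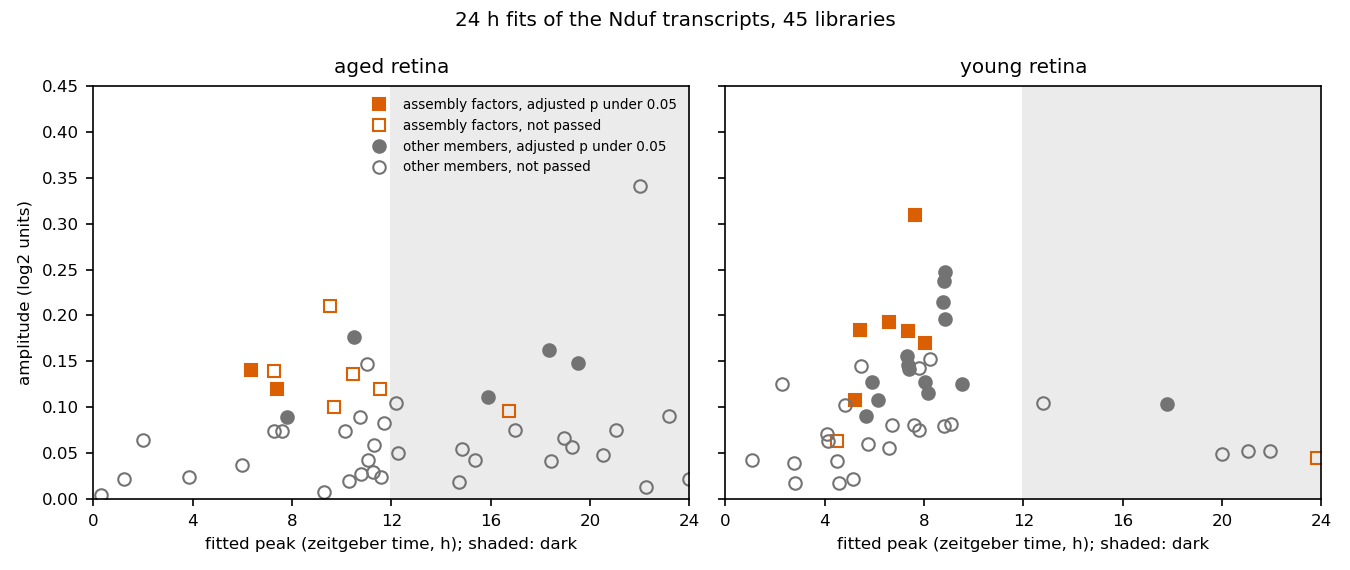
Fitted peak time (horizontal axis, h) and amplitude (vertical axis, log2 units) of each Nduf transcript in aged (left) and young (right) retina from 45 libraries, with assembly factors as squares and genes at an adjusted p under 0.05 filled. In young retina 20 members are filled, 19 of them with peaks in the light, and in aged retina 7 are filled. Filled or not, young peaks lie in the light for 40 of 46 members, against 73.2% of all genes.

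Of the 12 other assembly factors of complex I, 1 in aged and 8 in young passed the cosine test in 47 libraries, and 8 at each age in 45. Examples are Nubpl, which delivers iron-sulfur clusters, with a peak at ZT8.98 ± 0.61 h in aged and ZT7.66 ± 0.62 h in young, and Foxred1 at ZT6.85 ± 0.52 h and Tmem186 at ZT7.86 ± 0.60 h in young. Of the 7 mitochondrially encoded subunits 0 passed at either age. Of 13 regulators, 2 in aged and 4 in young passed in 47 libraries, and 5 in aged and 9 in young in 45, among them Tfam, the mitochondrial DNA-packaging factor, at ZT8.04 ± 1.02 h in aged and Ppargc1b at ZT8.08 ± 0.84 h in young. Of complex II, 0 of 8 passed in aged and 3 in young, which were the assembly factors Sdhaf1, Sdhaf3 and Sdhaf4.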

How the data were processed

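Polyadenylated RNA of whole retinas was sequenced, per the labels. The authors deposited RPKM values, 1 column per library. Per the submitters' processing notes, the tools were HISAT2 2.2.1, Subread 2.0.6 and FastQC 0.23.4 with the build GRCm39. No source used here gives their settings. One column matched no sample and was not used. Symbols and exon lengths came from GENCODE M21, an earlier build, and no gene coordinates of it are given. The promoter coordinates shown further above are of GRCm38.p6 and not of GRCm39.

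Low values are whole multiples of 1 read, so library totals and reads were recovered, whole within 0.01 for 37323 of 37323 genes above 0. Of the recovered values from 1 to 10 reads, 61.5% were even. Whether 1 fragment can count as 2 reads was not tested, so reads may not be separate fragments. Genes at 0.5 RPKM in 12 libraries (15321) were put on the log2(RPKM + 0.5) scale and tested by limma's eBayes with a trend (limma 3.58.1, R 4.3.3), with Benjamini-Hochberg adjustment over all of them. This scale understates changes of low genes. Age was tested with time as a factor, single times and the interaction from 12 group means, and rhythm by 24 h cosine and sine terms. Amplitude and peak errors are delta-method SEs. The tests were checked on simulated data with independent noise. Those data hold neither genes that vary together nor libraries that stand apart, so the check does not cover these features. Transcripts were compared with blastn 2.17.0. Nothing in the labels pairs libraries, and the p-values measure the spread between these mice.

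Members, gene lists and the 2 libraries left out were chosen with earlier results of these data known. Named genes are the 8 smallest p for age, up to 8 called in each rhythm test or the 3 smallest p, the smallest p at each time, 2 for the interaction, the 3 highest and 3 lowest levels, the nuclear core subunits, Ndufa4, Ndufa4l2, up to 16 called without the 2 libraries, and up to 4 per other list. The values of 1 member are not reported here, although it enters every count. Genes named beyond the rule were chosen after their values were seen. Alternatives changed the pseudocount, filter, scaling, block, weights, covariates, rhythm test and libraries. Scaling, block and further-library changes on top of the 2 libraries were added after seeing the data.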

Additional observations from a re-analysis of the deposited data

Results flagged for a closer look

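Single libraries were screened in the 11 groups of 4 for the mean level of the members and the RPKM of 8 genes, 99 tests in all, of which chance singles out about 1 in 20. In 10 cases the gap to the nearest library exceeded 0.829 of the group's range. Aged ZT6 replicate 3 stood out for Ndufaf4 at 15.7 RPKM. It was not flagged for the mean level of the members, although it is 1 of the 2 libraries left out above. Aged ZT10 replicate 3 stood out for Ndufaf8 at 26.0 RPKM and aged ZT22 replicate 2 for Ndufa10 at 45.7 RPKM. Young ZT10 replicate 4 stood out for the mean log2 level of the members at 5.44, and for Ndufa10 at 68.4, Ndufa4 at 426, Ndufa6 at 48.9 and Ndufaf8 at 41.4 RPKM. Young ZT6 replicate 2 stood out for Ndufb2 at 4.86 RPKM and young ZT18 replicate 1 for Ndufa10 at 48.2 RPKM.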

How the results depend on the processing

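For the age differences and amplitudes of named genes followed across settings, no age difference changed sign and no peak moved by over 6 h. That check did not cover all members. Over all 46 members, 14 age differences were negative with all libraries and 5 without the 2 libraries, so some changed sign. Aged peaks in the light went from 14 members to 27, and those between ZT16 and ZT21 from 23 to 8. The number of members higher with age (0 with all libraries) was 1 with quantile normalization, 1 with the replicate block, 6 with array weights and 16 without the 2 libraries, and 0 to 3 without single libraries. The number lower was 1 with quantile normalization and 0 without any single library. At single times the sum (0) was 1 with quantile normalization and 25 with array weights, and 0 to 2 without single libraries (2 without aged ZT6 replicate 2). The interaction count (0) was 7 with array weights and the rhythm difference stayed at 0. Rhythmic members in aged (1) were 2 with a filter of 1 RPKM, 2 with median-ratio scaling, 3 with quantile normalization, 0 with the replicate block, 10 with array weights, 7 without the 2 libraries, 0 with RPE and lens covariates, and 0 to 7 without single libraries. Rhythmic members in young (13) were 4 with median-ratio scaling, 21 with array weights, 20 without the 2 libraries, 4 with the covariates, 8 with time as a factor, and 9 to 20 without single libraries (20 without young ZT10 replicate 4). On top of the 2 libraries, 1 member was lower with quantile normalization, and with median-ratio scaling 3 were rhythmic in aged and 7 in young. One more library left out gave 10 to 20 higher with age, 4 to 7 rhythmic in aged (4 without aged ZT18 replicate 1), 15 to 22 in young and 0 to 1 at single times. The cause of these shifts was not tested. Apart from the shares of all genes stated further above, these counts have no background beside them and are descriptions. Replicate numbers were not used to pair the libraries in the main fits. The median correlation of deviations was 0.03 over 253 same-numbered pairs, with 90 over 0.1. Over 759 other pairs it was -0.01, with 202 over 0.1. Whether libraries of the same number have more in common was not tested. Depth limits Ndufa4l2, with a median of 23 reads, most.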
